A study of Mus musculus with 6 samples.

Results

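The mouse major histocompatibility complex (MHC, the H2 complex) was examined as the interval chr17:33680000-37600000 of mm10, 3.92 Mb that hold the class I, class II, class III, and H2-M genes. Every CpG listed in this interval was a member, whatever its level: 14276 CpGs were listed in at least 1 library, of 4175106 in the whole series. All 14276 were CG in the GRCm38 sequence, and they made up 29.7% of the 48016 CGs of the interval. Levels were compared at the 4443 CpGs that had at least 5 reads in all 6 libraries, of 1192344 such CpGs genome-wide. A level is the percentage of reads at a CpG that were methylated, and the level of a gene or of a 5-kb bin is the unweighted mean over its CpGs.

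The data are reduced representation bisulfite sequencing (RRBS) profiles of CD8+ T cells from lymph nodes of C57BL/6N mice, with 2 libraries for each of 3 genotypes. RRBS cuts DNA with MspI at CCGG and reads the bisulfite-converted ends, so it samples CpG-rich DNA. The genotypes were wild-type (wt, here WT), hSTAT5B +/T, which carries a human STAT5B transgene, and hSTAT5B N642H +/T, which carries the same transgene with the N642H mutation. Mice were not treated with any agent named in the labels. Both transgenes were driven by the Vav1 promoter, which is active across hematopoietic cells, and 1 selected line was used per construct, so that the construct and the insertion site cannot be told apart. The cells were purified with a magnetic kit, and the hSTAT5B N642H mice of this study had a CD8+ T cell disease. The mice were 13 weeks old, an age that the study's methylation figure legend gives without listing each genotype.

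MHC class I molecules display peptides from inside the cell to CD8+ T cells. H2-K1 and H2-D1 encode the classical class Ia heavy chains of C57BL/6 mice, which nearly all nucleated cells express, while the H2-Q, H2-T, and H2-M families encode class Ib molecules and pseudogenes, many with narrow expression. Class II molecules, encoded by H2-A and H2-E genes, display peptides from outside the cell and are expressed mainly by B cells, dendritic cells, and macrophages, not by resting mouse T cells. Within and beside the class II block lie the genes of the peptide supply (proteasome subunits Psmb8 and Psmb9, the transporter subunits Tap1 and Tap2, and the loading factor Tapbp), and the class III block holds complement and tumor necrosis factor family genes. In mammals, CpG-rich starts of expressed genes are usually unmethylated and most other CpGs are methylated.

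The libraries held 43291086 to 67007186 reads at CpGs, of which 136450 to 236091, or 0.315% to 0.352%, fell in the interval. At the CpGs compared, the median was 22 reads per CpG and library. WT replicate 1 stood apart. It listed the most CpGs in the interval (11844, against 9324 to 10782 in the others), and its level at the marker gene Cd8a was the highest of the 6. The level of Cd8a, the gene of the CD8 alpha chain, was 49.4% and 17% in WT, 18% and 25.2% in hSTAT5B, and 10.09% and 5.63% in hSTAT5B N642H. The level of Cd8b1, the gene of the CD8 beta chain, was 45.6% and 44.7% in WT, 26% and 27.6% in hSTAT5B, and 15.4% and 15.3% in hSTAT5B N642H. Levels at both genes were lowest in hSTAT5B N642H. At the third measured gene of the CD8 T cell list, Cd3g, which encodes a chain of the T cell receptor complex, the genotypes overlapped, at 76.4% and 72.2% in WT, 78.7% and 71.9% in hSTAT5B, and 76.9% and 74.8% in hSTAT5B N642H. Over the list, 3 of 5 genes had at least 3 CpGs, and their mean level was 44.6% to 57.2% in WT, 40.9% to 41.6% in hSTAT5B, and 31.9% to 34.1% in hSTAT5B N642H. Over the B cell list, 4 of 6 genes gave 54.5% to 56.4% in the 6 libraries, and over the myeloid list 4 of 5 genes gave 64% to 67.1%. These values stand beside every difference below in which WT is the reference. Their part in those differences was not tested, and a change in the cells collected cannot be told apart from a change within the cells.

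The windows in which the results are read are printed here from the GRCm38 RefSeq sequence, each 5′ to 3′ on the strand of its gene, with the CpGs measured in all 6 libraries in capitals. The first runs over the start of the second exon of H2-K1 (chr17:33999957-34000122, minus strand) and is shown as the usual state of a class Ia gene, in which 14 measured CpGs lie within a short stretch.
H2-K1 first intron and second exon: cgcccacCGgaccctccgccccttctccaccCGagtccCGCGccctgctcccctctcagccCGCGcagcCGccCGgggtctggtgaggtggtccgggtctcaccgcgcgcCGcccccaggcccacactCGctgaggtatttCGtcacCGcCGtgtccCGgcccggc
The next is a stretch close to the start of the class Ib gene H2-Q1 (chr17:35320610-35320785, plus strand), the end of its first exon and the start of its intron, where the hSTAT5B N642H libraries were higher than the others.
H2-Q1 first exon and intron: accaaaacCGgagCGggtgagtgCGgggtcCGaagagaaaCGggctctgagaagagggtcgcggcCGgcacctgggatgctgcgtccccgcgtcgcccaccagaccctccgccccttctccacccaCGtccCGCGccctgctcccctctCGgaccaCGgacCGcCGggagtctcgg
The intron window of the pseudogene H2-M6-ps (chr17:36971181-36971286, minus strand) holds the 5 CpGs behind the largest difference among the 28 H2 genes with at least 3 CpGs between hSTAT5B N642H and WT.
H2-M6-ps intron window: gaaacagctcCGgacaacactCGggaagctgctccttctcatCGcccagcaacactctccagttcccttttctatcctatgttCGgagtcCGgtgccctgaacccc
The intron window of the class II gene H2-Eb1 (chr17:34312162-34312282, plus strand) holds the only 2 CpGs measured at that gene.
H2-Eb1 intron window: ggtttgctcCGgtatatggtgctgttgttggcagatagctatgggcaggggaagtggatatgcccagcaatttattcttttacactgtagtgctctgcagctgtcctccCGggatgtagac
The coding exon window of Psmb9 (chr17:34185734-34185779, minus strand) holds 3 CpGs that also lie upstream of the start of Tap1.
Psmb9 exon window: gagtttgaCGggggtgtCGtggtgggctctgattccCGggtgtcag
The last window is upstream of Psmb8 (chr17:34197581-34197676, plus strand), the proximal promoter of an immunoproteasome gene.
Psmb8 upstream window: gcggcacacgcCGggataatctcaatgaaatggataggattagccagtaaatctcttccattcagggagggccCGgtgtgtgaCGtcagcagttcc

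The interval was less methylated than its chromosome. The mean level over the 4443 CpGs was 43% and 43.2% in WT, 43.3% and 43% in hSTAT5B, and 42.6% and 42.7% in hSTAT5B N642H. Over the 46815 CpGs of the rest of chromosome 17 it was 60.4% and 60.8% in WT, 60.9% and 60.8% in hSTAT5B, and 60.0% and 60.2% in hSTAT5B N642H. The interval was lower by 17.3 to 17.8 percentage points in every library (two-sided exact sign-flip permutation test over the 6 libraries, p = 0.0313, the smallest this test can give). All 6 libraries measure the same CpGs, so this test, here and below, covers only whether a difference repeats between mice. It does not measure the spread between regions of the chromosome. The CpGs also lay differently: 50.2% of the CpGs of the interval lay within 1 kb of an annotated gene start, against 29.3% in the rest of the chromosome. Near starts the interval was at 14.8% to 15.3% and the rest at 14.6% to 15.0%, and the difference did not pass the same exact sign-flip test (p = 0.0625). Farther from starts, the interval was at 70.7% to 71.6% and the rest at 78.7% to 79.9%, a difference of -8.53 to -8.06 points (same exact sign-flip test, p = 0.0313).

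Individual CpGs were mostly at one end of the scale. Averaged over the libraries, 51.6% of the CpGs of the interval were below 20% and 37.2% above 80%, against 33.3% and 56.5% in the rest of the chromosome. The blocks of the complex differed from each other far more than the genotypes did. The block of H2-D and H2-Q genes was the lowest together with the block before H2-K, at 32.9% to 34.8% and 33% to 34.4% over the 6 libraries, and their ranges overlapped. The block of H2-K and class II genes (40.4% to 42.1%), the class III block (40.2% to 41.1%), and the stretch between H2-Q and H2-T (40.5% to 41.1%) also overlapped. The H2-M block was at 55.1% to 56.4%, and the H2-T block was highest at 65.7% to 68.1%. The share of CpGs within 1 kb of a start differed too, from 68.3% in the H2-D and H2-Q block to 27.9% in the H2-T block. Farther from starts, the H2-D and H2-Q block was at 84.6% as a mean over the libraries, below only the H2-T block (91.6%). The other blocks lay between 64.8% and 76.6% there, so the order of the blocks differs with the distance from starts. The H2-T and H2-M blocks had the fewest measured CpGs per kb (0.834 and 0.488, against 1.28 to 1.71 in the other blocks).

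**Figure D1:**
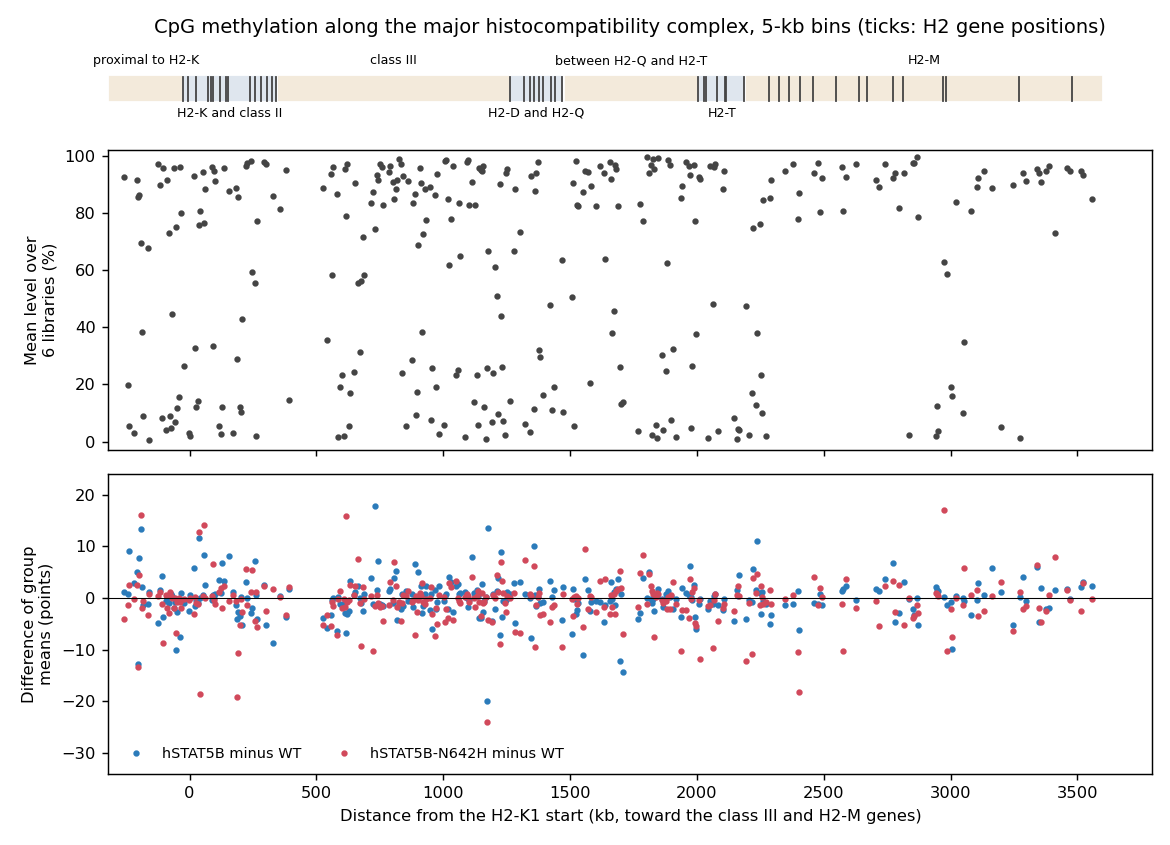
Methylation level along the interval in 328 bins of 5 kb with at least 3 CpGs, against distance in kb from the H2-K1 start. The middle panel gives the mean level over the 6 libraries in percent, with bins near 0 and near 100 in every block; the lower panel gives the difference of group means in percentage points for hSTAT5B (blue) and hSTAT5B N642H (red) against WT, and most bins lie within 10 points of 0. Both comparisons share the WT libraries.

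The level of the whole interval differed by less than 0.5 points between genotypes as a mean over CpGs, and by up to 1.60 points when reads were pooled. The mean over CpGs was 43.1 ± 0.0945% in WT, 43.1 ± 0.213% in hSTAT5B, and 42.7 ± 0.0278% in hSTAT5B N642H (SD, n = 2 each). The hSTAT5B N642H libraries were below both WT and both hSTAT5B libraries, with mean differences of -0.454 and -0.469 points, and hSTAT5B was above WT by 0.0153 points with overlapping libraries. With 2 libraries against 2, an exact permutation test cannot give a two-sided p below 0.33, which is the p of both comparisons with hSTAT5B N642H (p = 1 for hSTAT5B against WT). The rest of chromosome 17 differed in hSTAT5B N642H by -0.505 points from WT and by -0.761 from hSTAT5B, so the shift in the interval was no larger than that around it. When all reads of the interval were pooled instead of averaging over CpGs, hSTAT5B was above WT by 1.60 points, hSTAT5B N642H was above WT by 0.203 points, the other direction, and hSTAT5B N642H differed from hSTAT5B by -1.40 points.

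Of 45 genes named H2 that the annotation (GENCODE M21) places in the interval, 28 had at least 3 CpGs measured in all libraries, 8 had 1 or 2, and 9 had none (H2-Aa, H2-Ea-ps, H2-T10, H2-M1, H2-M2, H2-M9, H2-M10.1, H2-M10.6, and H2-M11). A gene was taken from 2 kb upstream of its start to its end. H2-Ke6, a dehydrogenase gene that bears the H2 name only by position, was at 3.47% to 7.26%. Class I genes are near-identical copies, and with short single-end reads the placement of reads among H2-K, H2-D, and H2-Q genes is uncertain.

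The class Ia genes were unmethylated in every library. At H2-K1 (chr17:33996017-34000347; 34 CpGs, 399 to 906 reads a library), the level was 2.52% and 4.10% in WT, 2.00% and 1.46% in hSTAT5B, and 4.02% and 2.18% in hSTAT5B N642H. At H2-D1 (chr17:35262730-35267499; 28 CpGs, 299 to 962 reads a library), the level was 6.11% and 4.36% in WT, 4.77% and 7.81% in hSTAT5B, and 6.02% and 5.22% in hSTAT5B N642H. The genotypes overlapped at H2-D1, and at H2-K1 the hSTAT5B libraries lay below both WT libraries while the hSTAT5B N642H libraries overlapped WT. Over the 33 H2-K1 CpGs within 1 kb of the start, hSTAT5B (1.76% and 1.51%) lay between the WT libraries (1.29% and 3.61%). Neither gene passed the test in any comparison (limma, lowest adjusted p 0.637). In the printed window of H2-K1, 9 of 14 CpGs had no more than 1 methylated read in any library, and the highest of the others, chr17:34000048, had 0 of 15 and 0 of 43 reads in WT, 2 of 36 and 5 of 26 in hSTAT5B, and 3 of 30 and 7 of 43 in hSTAT5B N642H.

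The H2-Q genes and H2-K2 were low to intermediate. Within 1 kb of their starts, H2-Q4 was at 1.19% to 3.20%, H2-Q2 at 1.71% to 4.56%, and H2-Q10, a gene expressed mainly in liver, at 18.4% to 21.3%. Every library of H2-Q10 was thus above every library of H2-Q4 and H2-Q2. Over the whole gene, H2-Q4, H2-Q5, H2-Q6, H2-Q7, H2-Q10, and H2-K2 lay between 11.6% and 29.1%.

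H2-Q1 was the H2-Q gene with the largest difference in hSTAT5B N642H. Its level (chr17:35320405-35325099; 13 CpGs, 192 to 547 reads a library) was 2.17% and 4.91% in WT, 5.36% and 3.11% in hSTAT5B, and 12.1% and 9.66% in hSTAT5B N642H. Both hSTAT5B N642H libraries were above the other 4, with means of 3.54 ± 1.94% in WT and 10.9 ± 1.71% in hSTAT5B N642H (SD, n = 2 each). The difference of 7.33 points did not pass the test (limma, log2 ratio of methylated to unmethylated reads 1.71, SE 0.44, adjusted p = 0.557). Within the printed H2-Q1 window, the CpG at chr17:35320640 had 1 of 22 and 2 of 31 reads in WT, 2 of 27 and 1 of 21 in hSTAT5B, and 10 of 47 and 13 of 41 in hSTAT5B N642H. At the 7 intron CpGs farthest downstream, hSTAT5B N642H replicate 1 had methylated reads at all 7 and replicate 2 at 2.

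H2-Q3 was shallow and its libraries scattered. The level was 0% and 12.3% in WT, 9.67% and 22.8% in hSTAT5B, and 15.1% and 9.54% in hSTAT5B N642H (7 CpGs, 65 to 244 reads a library). The difference between hSTAT5B and WT, 10.11 points, was the largest among the 28 H2 genes with at least 3 CpGs in that comparison (adjusted p = 0.903, limma). It was 3.99 points without WT replicate 1 and 16.2 without WT replicate 2, 16.7 without hSTAT5B replicate 1 and 3.54 without hSTAT5B replicate 2, and 1.53 with 10 kb added on both sides. Between hSTAT5B N642H and WT the difference of 6.19 points fell to 0.0592 without WT replicate 1.

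The H2-T genes were at the ends of the scale. H2-T24 (23 CpGs, 433 to 825 reads a library) was methylated at 91.1% to 93.7%, and H2-T22, which encodes a ligand of some gamma delta T cell receptors, was unmethylated at 0% to 2.47% (4 CpGs, 73 to 182 reads a library). H2-Bl (6 CpGs, 89 to 177 reads a library) was at 7.59% and 3.63% in WT, 4.46% and 4.05% in hSTAT5B, and 2.28% and 0% in hSTAT5B N642H. Both hSTAT5B N642H libraries were below the other 4 there, by 4.47 points against WT on average (adjusted p = 0.619, limma). H2-T23, which encodes Qa-1, and H2-T3, which encodes the thymus leukemia antigen, had 1 CpG each and 5 to 13 reads a library, which is too few to compare.

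Among the H2-M genes, H2-M3, which presents N-formylated peptides, was unmethylated and the H2-M10 genes were methylated. The level of H2-M3 was 1.11% and 0.774% in WT, 0.959% and 1.15% in hSTAT5B, and 2.54% and 1.78% in hSTAT5B N642H (11 CpGs, 169 to 325 reads a library). The hSTAT5B N642H libraries were the highest of the 6, by 1.22 points against WT (adjusted p = 0.635, limma). H2-M10.2, H2-M10.4, and H2-M10.5, of a family known from vomeronasal neurons, lay between 72.5% and 99.5%. For hSTAT5B against WT, H2-M10.2 differed by -6.84 points and H2-M10.5 by 6.84 points, at 3 CpGs each (adjusted p = 0.890 and 0.975, limma). The H2-M10.2 difference ran from -12.6 points without hSTAT5B replicate 2 to -1.08 without hSTAT5B replicate 1. The H2-M10.5 difference was 3.34 points without hSTAT5B replicate 2 and 4.52 without WT replicate 2, against 10.33 without hSTAT5B replicate 1, and it was -0.352 with 10 kb on both sides.

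H2-M6-ps and H2-M5, both in the H2-M block, were intermediate, and their mean differences had opposite signs. At H2-M6-ps (chr17:36969195-36971396; 5 CpGs, 304 to 578 reads a library), the level was 59.8% and 54.5% in WT, 60.4% and 54.3% in hSTAT5B, and 76% and 72.5% in hSTAT5B N642H. Both hSTAT5B N642H libraries were above the other 4, with means of 57.1 ± 3.74% in WT and 74.3 ± 2.52% in hSTAT5B N642H (SD, n = 2 each). The difference of 17.1 points was the largest of the 28 H2 genes with at least 3 CpGs and did not pass the test across all genes (limma, log2 ratio 1.31, SE 0.25, adjusted p = 0.488). It was 14.5 to 19.8 points when any 1 library was left out. Against hSTAT5B the difference was 16.9 points (adjusted p = 0.570, limma).

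At H2-M6-ps the libraries separated at the 3 deepest of the 5 CpGs of its printed intron window. The CpG at chr17:36971202 had 57 of 85 and 83 of 135 reads in WT, 55 of 88 and 74 of 105 in hSTAT5B, and 136 of 159 and 129 of 148 in hSTAT5B N642H. The CpG at chr17:36971195, which shares reads with it, had 55 of 84 and 73 of 134 reads in WT, 52 of 88 and 53 of 103 in hSTAT5B, and 123 of 158 and 111 of 147 in hSTAT5B N642H. At chr17:36971243 there were 73 of 101 and 105 of 156 reads in WT, 86 of 107 and 87 of 128 in hSTAT5B, and 163 of 193 and 150 of 169 in hSTAT5B N642H. In each of these 3 both hSTAT5B N642H libraries were above the other 4, while the libraries overlapped at the 2 CpGs with fewer reads, chr17:36971264 and chr17:36971275. A quasi-binomial model of the bin that holds these 5 CpGs, which weights libraries by their reads, passed the threshold for hSTAT5B N642H against WT (adjusted p = 0.00786) and against hSTAT5B (adjusted p = 0.0230). Fitted over genes, where the H2-M6-ps window holds the same 5 CpGs, the same model did not call it. The smallest adjusted p of the 28 H2 genes was 0.133 and 0.137 there (quasi-binomial). The model sums reads over CpGs, so a read that covers 2 CpGs is counted at each.

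At H2-M5 (chr17:36984061-36989537; 17 CpGs, 288 to 467 reads a library), the level was 65.1% and 60.0% in WT, 58% and 64.4% in hSTAT5B, and 51.1% and 53.6% in hSTAT5B N642H. Here both hSTAT5B N642H libraries were below the other 4, with means of 62.5 ± 3.64% in WT and 52.3 ± 1.76% in hSTAT5B N642H (SD, n = 2 each). The difference was -10.19 points (limma, log2 ratio -0.77, SE 0.23, adjusted p = 0.603), and between -12.8 and -7.62 points when any 1 library was left out. The coding exon nearest the start was mostly methylated, with 26 of 26 and 10 of 10 reads in WT, 10 of 14 and 11 of 11 in hSTAT5B, and 14 of 16 and 9 of 11 in hSTAT5B N642H at chr17:36989434, and a coding exon farther downstream was lower, with 4 of 10 and 13 of 30 reads in WT, 2 of 13 and 2 of 10 in hSTAT5B, and 1 of 18 and 3 of 23 in hSTAT5B N642H at chr17:36988649.

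**Figure D2:**
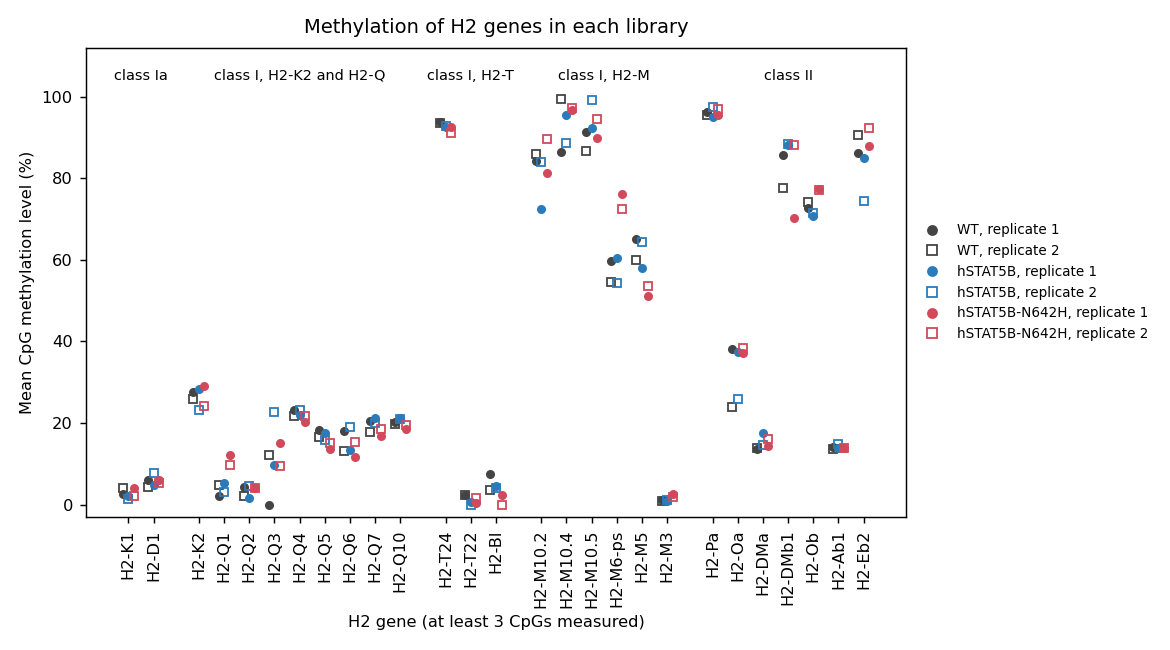
Mean CpG methylation level in percent of the 27 class I and class II H2 genes and pseudogenes with at least 3 CpGs, in family order, for each library. H2-Ke6 is left out. Filled circles are replicate 1 and open squares replicate 2, in black for WT, blue for hSTAT5B, and red for hSTAT5B N642H. H2-K1, H2-D1, H2-T22, and H2-M3 lie below 8%, H2-T24 and H2-Pa above 90%, and the hSTAT5B N642H libraries stand above the others at H2-M6-ps and H2-Q1 and below them at H2-M5.

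Of the 12 class II genes 7 could be tested, and their mean levels ranged from 14.1% to 96.1%. H2-Pa (9 CpGs, 232 to 428 reads a library), a class II pseudogene, was at 95% to 97.4%. H2-Ob, which encodes the beta chain of the B cell modulator H2-O, was at 70.8% to 77.2%, and H2-Eb2 at 74.4% to 92.3%. H2-Ab1 (chr17:34257689-34269419; 55 CpGs, 855 to 1837 reads a library), which encodes the beta chain of the class II molecule I-A, was at 14.2% and 13.7% in WT, 13.9% and 14.9% in hSTAT5B, and 13.9% and 13.9% in hSTAT5B N642H. The 6 libraries of H2-Ab1 lay within 1.26 points of each other. Of its 55 CpGs only 1 was within 1 kb of the start. H2-DMa was at 13.6% to 17.7%, but 72 of its 86 CpGs also lie in the window of Brd2. H2-Pb and H2-DMb2 had 2 CpGs each, at 9.06% to 20.2% and 90.9% to 100%.

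The class II genes with larger differences were shallow or scattered. H2-Oa, which encodes the alpha chain of H2-O, was at 38.2% and 23.9% in WT, 37.3% and 25.8% in hSTAT5B, and 37% and 38.4% in hSTAT5B N642H (7 CpGs, 165 to 390 reads a library). Replicate 2 was low in WT and hSTAT5B but not in hSTAT5B N642H, so the difference of 6.65 points was 13.8 points without WT replicate 1 and -0.504 without WT replicate 2 (adjusted p = 0.751, limma). H2-DMb1, which encodes a chain of the peptide exchanger H2-M, was at 85.8% and 77.6% in WT, 88.2% and 88.4% in hSTAT5B, and 70.2% and 88.1% in hSTAT5B N642H. For hSTAT5B against WT it differed by 6.60 points and H2-Eb2 by -8.77 points (adjusted p = 0.975 and 0.963, limma), and the H2-DMb1 difference was -1.69 points at CpGs with 10 reads. Without WT replicate 2 the H2-DMb1 difference was 2.53 points, and without WT replicate 1 it was 10.7. For H2-Eb2 it was -14.0 points without hSTAT5B replicate 1 and -3.55 without hSTAT5B replicate 2.

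H2-Eb1, which encodes the beta chain of the class II molecule I-E, had 2 measured CpGs and so stood outside the tested set. It is described because its mean levels, once seen, did not overlap between any of the genotypes. Both CpGs lie in an intron of the gene (chr17:34305867-34316674), far from its start. The mean level was 63.5% and 56.1% in WT, 45.5% and 32.7% in hSTAT5B, and 25.8% and 27% in hSTAT5B N642H. In this mean WT was highest, hSTAT5B between, and hSTAT5B N642H lowest, with no overlap between the 3 genotypes. At the first CpG of the printed window alone, WT was also highest, but the hSTAT5B and hSTAT5B N642H libraries overlapped. The order of the 2 transgenic genotypes thus rests on the second CpG. At chr17:34312271, the second CpG of the printed window, 29 of 32 and 47 of 53 reads in WT, 18 of 22 and 32 of 49 in hSTAT5B, and 32 of 66 and 20 of 46 in hSTAT5B N642H were methylated. The levels there ran from 90.6% (exact 95% interval 75% to 98%) in WT replicate 1 to 43.5% (exact 95% interval 28.9% to 58.9%) in hSTAT5B N642H replicate 2. These intervals cover counting error only, since RRBS reads carry no molecular identifiers. With 10 kb added on both sides of the gene, the difference from WT was -7.55 points, against -33.4 points at the 2 CpGs. When genes with 1 or more CpGs were fitted, H2-Eb1 did not pass for hSTAT5B N642H against WT (limma, adjusted p = 0.487).

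**Figure D3:**
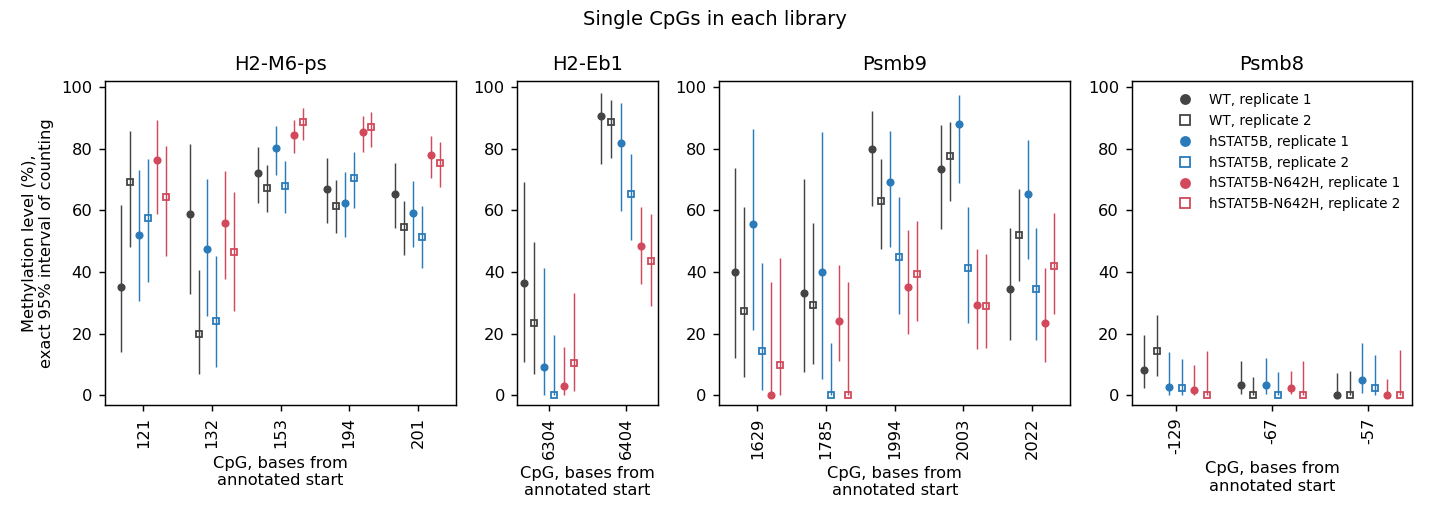
Methylation level in percent of single CpGs at H2-M6-ps, H2-Eb1, Psmb9, and Psmb8 in each library, with exact 95% binomial intervals of the read counts; the horizontal axis gives bases from the annotated gene start. The hSTAT5B N642H libraries (red) are highest at the 3 deep H2-M6-ps CpGs and lowest at the H2-Eb1 CpG at 6404 bases, and all libraries are below 15% at the 3 CpGs plotted upstream of Psmb8.

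Of the 5 peptide supply genes, 4 had both hSTAT5B N642H libraries below both WT libraries (Tapbp, Tap1, Psmb8, and Psmb9), and Tap2 overlapped. Genome-wide, 23.9% of 28952 genes were lower without overlap in this comparison and 15.9% higher. The 3 genes with the larger differences are neighbors that share CpGs: 7 of the 14 Psmb9 CpGs lie in the Tap1 window, and 8 of the 12 Psmb8 CpGs do. At Tapbp, 29 of the 50 CpGs also lie in the window of the neighboring gene Zbtb22. Within 1 kb of the Tapbp start the libraries overlapped, at 2.18% and 1.15% in WT and 1.03% and 1.84% in hSTAT5B N642H. The median difference of the 5 genes was -5.31 points, against 0.116 over the 28 H2 genes and -0.454 over the 72 listed genes. Levels at Cd8a and Cd8b1, outside the interval, were also lowest in hSTAT5B N642H while Cd3g overlapped between genotypes, and the part of the cells collected in these differences was not tested.

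Psmb9, an inducible proteasome subunit, was at 67.8% and 67.3% in WT, 71.4% and 58.1% in hSTAT5B, and 57.3% and 58.8% in hSTAT5B N642H (chr17:34181987-34187764; 14 CpGs, 334 to 684 reads a library). hSTAT5B replicate 2 lay with the hSTAT5B N642H libraries and hSTAT5B replicate 1 above WT. The difference between hSTAT5B N642H and WT was -9.53 points, and between -10.25 and -8.80 points when any 1 library was left out. The 7 CpGs in the last exons were at 87% to 100% in every library, and the 2 upstream of the start had at most 1 methylated read. Between them, in the printed exon window, the CpG at chr17:34185761 had 22 of 30 and 35 of 45 reads in WT, 22 of 25 and 12 of 29 in hSTAT5B, and 10 of 34 and 11 of 38 in hSTAT5B N642H. The limma test, which sums reads over the gene and so gives the deeply read last exons more weight, gave a log2 ratio of -0.11, SE 0.39 and an adjusted p of 0.960.

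Tap1, which encodes a subunit of the peptide transporter, was at 42.3% and 37.4% in WT, 39.8% and 32% in hSTAT5B, and 25.9% and 30.5% in hSTAT5B N642H (chr17:34187553-34197225; 20 CpGs, 557 to 849 reads a library). Both hSTAT5B N642H libraries were the lowest of the 6, by 11.7 points against WT (limma, log2 ratio -0.60, SE 0.27, adjusted p = 0.679), and by 5.71 points when 10 kb were added on both sides. Psmb8, another inducible proteasome subunit, was at 10.51% and 5.10% in WT, 3.70% and 5.07% in hSTAT5B, and 1.23% and 3.77% in hSTAT5B N642H (chr17:34197721-34201454; 12 CpGs, 434 to 671 reads a library). The difference of -5.31 points (limma, log2 ratio -1.83, SE 0.47, adjusted p = 0.554) was -2.60 without WT replicate 1. Upstream of Psmb8, the first CpG of the printed window, chr17:34197592, had 4 of 49 and 8 of 56 reads in WT, 1 of 37 and 1 of 45 in hSTAT5B, and 1 of 54 and 0 of 24 in hSTAT5B N642H. The other 2 CpGs of that window had at most 2 methylated reads in any library. Tap2 was at 20.9% to 25.8% and Tapbp at 45.7% to 48%, each with differences of less than 2 points against WT in both genotypes.

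**Figure D4:**
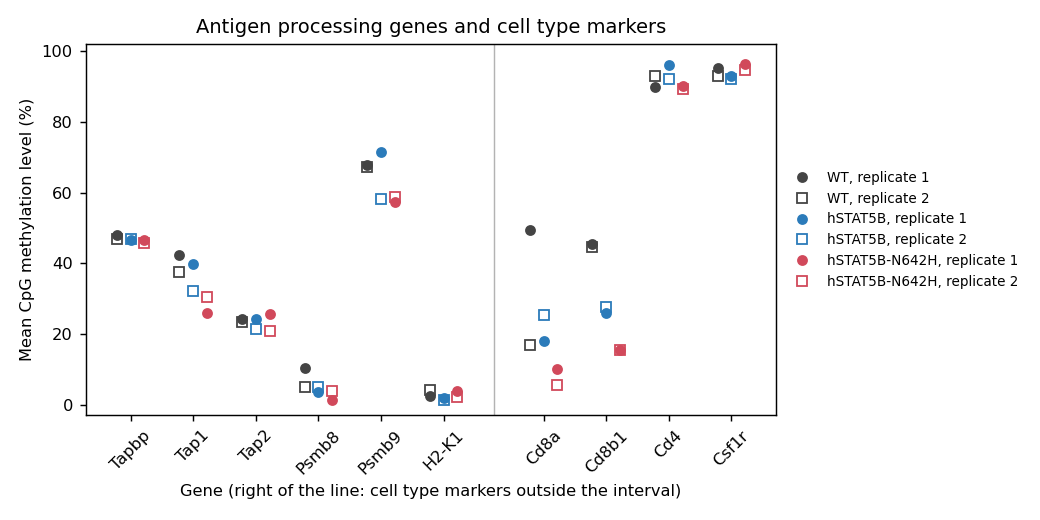
Mean CpG methylation level in percent of the peptide supply genes and H2-K1 (left of the line) and of cell type marker genes outside the interval (right), for each library; symbols as in the plot of H2 genes. Tap1, Psmb8, and Psmb9 are lower in both hSTAT5B N642H libraries than in WT, as are Cd8a and Cd8b1, and WT replicate 1 stands apart at Cd8a.

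In the class III block, Tnf, the gene of tumor necrosis factor, was at 60.9% and 63.1% in WT, 58.6% and 61% in hSTAT5B, and 61.4% and 62.7% in hSTAT5B N642H (5 CpGs, 201 to 349 reads a library). Ltb, the gene of lymphotoxin beta, was at 6.65% and 2.51% in WT, 4.55% and 2.77% in hSTAT5B, and 3.01% and 4.06% in hSTAT5B N642H (10 CpGs, 348 to 783 reads a library). Both overlapped between genotypes, and Lta had no CpG measured in all libraries. The complement genes C4a, C4b, and Cfb were methylated at 83.1% to 92.9%. The window of C2 was at 19% to 21.1%, and 98 of its 158 CpGs are shared with the neighboring gene Zbtb12. Over their gene windows, the heat shock genes Hspa1a, Hspa1b, and Hspa1l were highest in WT replicate 2. Within 1 kb of the start this held for Hspa1a and Hspa1b. It did not hold for Hspa1l, at 3.48% in WT replicate 2 and 2.62% to 7.98% over all libraries. At the starts of housekeeping genes such as Ddx39b, Bag6, and Ehmt2 the level within 1 kb was at most 2.38% in every library.

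Aif1, a gene of the class III block known from macrophages, was singled out after its values were seen, as the class III gene with the largest difference. Its level was 55.2% and 30.3% in WT, 44% and 33.3% in hSTAT5B, and 26.8% and 23.9% in hSTAT5B N642H at 5 CpGs (62 to 211 reads a library). WT replicate 1 was far above the rest, and the difference of -17.5 points between hSTAT5B N642H and WT fell to -5.00 without it (adjusted p = 0.754 with all libraries, limma).

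None of the 28 H2 genes passed an adjusted p of 0.05 in any of the 3 comparisons with limma, and none of the 72 tested genes of the lists did. The background was 0.0% of 28952 genes in each comparison. At an unadjusted p under 0.05 there were 8 of the 72 for hSTAT5B N642H against WT, 2 for hSTAT5B against WT, and 5 for hSTAT5B N642H against hSTAT5B. The backgrounds at that threshold were 7.53%, 6.07%, and 7.92% of all genes. For hSTAT5B N642H against WT, 5 of the 28 had an unadjusted p under 0.05 (H2-M6-ps, H2-Q1, and H2-M3 higher, H2-M5 and H2-Bl lower), or 17.9%, against a background of 7.53%. For hSTAT5B against WT, 2 did (H2-Q10 and H2-T22, both with a lower log2 ratio), or 7.14%, against 6.07%. For hSTAT5B N642H against hSTAT5B, 3 did (H2-M6-ps, H2-M5, and H2-Bl), or 10.7%, against 7.92%. A quasi-binomial model also called none of the 28, against backgrounds of 0.0138% for hSTAT5B N642H against WT, 0.0138% for hSTAT5B against WT, and 0.0104% for hSTAT5B N642H against hSTAT5B. In hSTAT5B N642H against WT, 7 of the 28 were lower and 5 higher without overlap, or 25.0% and 17.9%, against the genome-wide 23.9% and 15.9% given above.

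Among 328 bins of 5 kb with at least 3 CpGs, limma called none in any comparison, with a background of 0.0% of 120214 bins in each. At an unadjusted p under 0.05 there were 19 bins (5 higher, 14 lower) for hSTAT5B N642H against WT, 23 (11 higher, 12 lower) for hSTAT5B against WT, and 27 (11 higher, 16 lower) for hSTAT5B N642H against hSTAT5B. These are 5.79%, 7.01%, and 8.23% of the bins, against backgrounds of 7.61%, 6.35%, and 7.51%. Differences of 10 points or more against WT occurred in 19 bins for hSTAT5B N642H (5 higher, 14 lower) and in 11 for hSTAT5B (6 higher, 5 lower). That is 5.79% and 3.35%, against backgrounds of 4.49% and 3.14%. Between hSTAT5B N642H and hSTAT5B there were 16 (4 higher, 12 lower), or 4.88%, against 4.13%. In 78 bins both hSTAT5B N642H libraries were lower than both WT libraries and in 41 higher, or 23.8% and 12.5%, against backgrounds of 25.3% and 13.3%.

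The 3 bins with the smallest p for hSTAT5B N642H against WT were the bin at Flot1 and Tubb5 (chr17:35830001-35835000), the H2-M6-ps bin, and the H2-Q1 bin (limma, adjusted p 0.589 to 0.607). The Flot1 bin was at 100% and 97.7% in WT, 96.9% and 95.7% in hSTAT5B, and 88.2% and 94.3% in hSTAT5B N642H. It was nearly fully methylated in WT and lowest in hSTAT5B N642H replicate 1. For hSTAT5B against WT they were the bins at Vps52 (chr17:33960001-33965000), at Ly6g5c and Ly6g5b (chr17:35110001-35115000), and at H2-M10.6 (chr17:36815001-36820000). All had an adjusted p of 0.737 (limma). The last bin is named for H2-M10.6 because it overlaps that gene. Its 6 measured CpGs lie outside the gene and the 2 kb upstream of its start, so they are not a level of H2-M10.6. The Vps52 bin was at 99% and 98.7% in WT, 91% and 91.4% in hSTAT5B, and 100% and 96% in hSTAT5B N642H, lower in both hSTAT5B libraries than in the other 4, with 37 to 116 reads a library over 5 CpGs. For hSTAT5B N642H against hSTAT5B, a bin at Egfl8 and Ppt2 (chr17:34615001-34620000) came first, at 77.3% and 74.7% in WT, 78.7% and 59.8% in hSTAT5B, and 88% and 95.8% in hSTAT5B N642H and 35 to 99 reads (adjusted p = 0.602, limma), followed by the H2-M10.6 and Vps52 bins (adjusted p = 0.602 and 0.602, limma).

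The quasi-binomial model called 2 bins for hSTAT5B N642H against WT, with a background of 0.405%. It called none for hSTAT5B against WT (0.00416%) and 2 for hSTAT5B N642H against hSTAT5B (0.186%). At an unadjusted p under 0.05 in this model, 46 bins, or 14.0%, differed for hSTAT5B N642H against WT, against a background of 10.51%. For hSTAT5B against WT there were 24, or 7.32%, against 6.05%. Between hSTAT5B N642H and hSTAT5B there were 46, or 14.0%, against 10.43%. Among the called bins, the H2-M6-ps bin was higher in hSTAT5B N642H in both of its comparisons. The other bin called against WT, at Prrt1 (chr17:34630001-34635000), was at 15.7% and 14.2% in WT, 19.2% and 17.3% in hSTAT5B, and 17.5% and 17.3% in hSTAT5B N642H (28 CpGs, adjusted p = 0.0431). Its libraries span only 4.97 points. The other bin called against hSTAT5B, at Agpat1, Rnf5, and Ager (chr17:34600001-34605000), was at 24.6% and 23.8% in WT, 23% and 22.8% in hSTAT5B, and 25% and 19.7% in hSTAT5B N642H (13 CpGs, adjusted p = 0.0324), and the 2 hSTAT5B N642H libraries lay on either side of the hSTAT5B libraries.

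Reads per bin, scaled to the total of the library, were compared to see whether the complex of any genotype carried missing or extra copies, or a sequence that differs from the C57BL/6 reference and so gains or loses MspI sites. Of 696 bins with a CpG, 534 had a mean of at least 10 reads. No bin passed in any of the 3 comparisons (limma-voom), against backgrounds of 0.00195% of 256416 bins for hSTAT5B N642H against WT, 0.00156% for hSTAT5B against WT, and 0.0% for hSTAT5B N642H against hSTAT5B. At an unadjusted p under 0.05 there were 61, 37, and 45 bins, or 11.4%, 6.93%, and 8.43%, against 12.4%, 5.85%, and 6.83%. Only 4 bins had no read in some library, and none of the 4 had a mean above 13.8 reads.

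Among the 310 bins with a mean of at least 100 reads, 2 had a library more than 2-fold from the median of the 6, 1 in WT replicate 1 and 1 in hSTAT5B N642H replicate 2. Over all 534 bins, WT replicate 1 was more than 2-fold from the median in 37 (35 above), against 7 to 20 bins in the other libraries. In all 3 bins with the smallest p for hSTAT5B N642H against WT, WT replicate 1 was the highest library. At Olfr97 (chr17:37230001-37235000) the reads were 111 and 65 in WT, 24 and 20 in hSTAT5B, and 16 and 20 in hSTAT5B N642H (log2 fold change -2.50, SE 0.57, adjusted p = 0.259, limma-voom). Scaled to the library totals (RPM), this was 2.52 and 1.20 in WT, 0.506 and 0.462 in hSTAT5B, and 0.239 and 0.394 in hSTAT5B N642H. WT replicate 2 was the next highest there. The other 2 bins, at CR974462.5 (chr17:34015001-34020000) and Gabbr1 (chr17:37070001-37075000), had log2 fold changes of -1.37 and -1.46 (limma-voom, adjusted p = 0.258 and 0.273). When WT replicate 2 was left out, WT replicate 1 stood alone for WT. Bins were called for hSTAT5B N642H against WT in that fit, all lower, with means of 18.3 to 80.3 reads. WT replicate 1 was the highest library in each of them. The share called genome-wide in that fit is not given here, so these calls are not read as a trait of the interval.

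For hSTAT5B against WT, the bin at H2-Q3 (chr17:35355001-35360000) was among the 3 with the smallest p. Its reads were 92 and 143 in WT, 238 and 164 in hSTAT5B, and 253 and 180 in hSTAT5B N642H, higher in both hSTAT5B libraries than in both WT libraries (log2 fold change 0.89, SE 0.24, adjusted p = 0.829, limma-voom). The hSTAT5B N642H libraries lay between hSTAT5B replicate 2 and WT in RPM. The bin at Kifc1 (chr17:33890001-33895000) was, in RPM, at 4.65 and 4.84 in WT, 2.04 and 2.98 in hSTAT5B, and 3.76 and 3.57 in hSTAT5B N642H, lowest in both hSTAT5B libraries (limma-voom, adjusted p = 0.829). A bin with no annotated gene (chr17:36610001-36615000) was also lowest in both hSTAT5B libraries, at a log2 fold change of -1.31 against WT (limma-voom, adjusted p = 0.829). For hSTAT5B N642H against hSTAT5B, the bin at Pfdn6 and Wdr46 (chr17:33940001-33945000) was, in RPM, at 16.9 and 20.2 in WT, 18.4 and 14.4 in hSTAT5B, and 24.6 and 23.8 in hSTAT5B N642H, with both hSTAT5B N642H libraries highest (limma-voom, adjusted p = 0.661). The other 2 bins of this comparison were lower in hSTAT5B N642H than in hSTAT5B. The bin at Ddr1, a collagen receptor gene (chr17:35690001-35695000), was, in RPM, at 2.54 and 1.45 in WT, 2.28 and 1.87 in hSTAT5B, and 0.776 and 0.986 in hSTAT5B N642H (log2 fold change -1.26, SE 0.34, adjusted p = 0.661, limma-voom). The bin at Gm20483 and Vars2 (chr17:35660001-35665000) was, in RPM, at 9.14 and 10.15 in WT, 12.5 and 12 in hSTAT5B, and 9.22 and 7.55 in hSTAT5B N642H (log2 fold change -0.54, SE 0.17, adjusted p = 0.676, limma-voom). At Ddr1 both hSTAT5B N642H libraries were the lowest of the 6, and at Vars2 hSTAT5B N642H replicate 1 lay between the WT libraries.

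**Figure D5:**
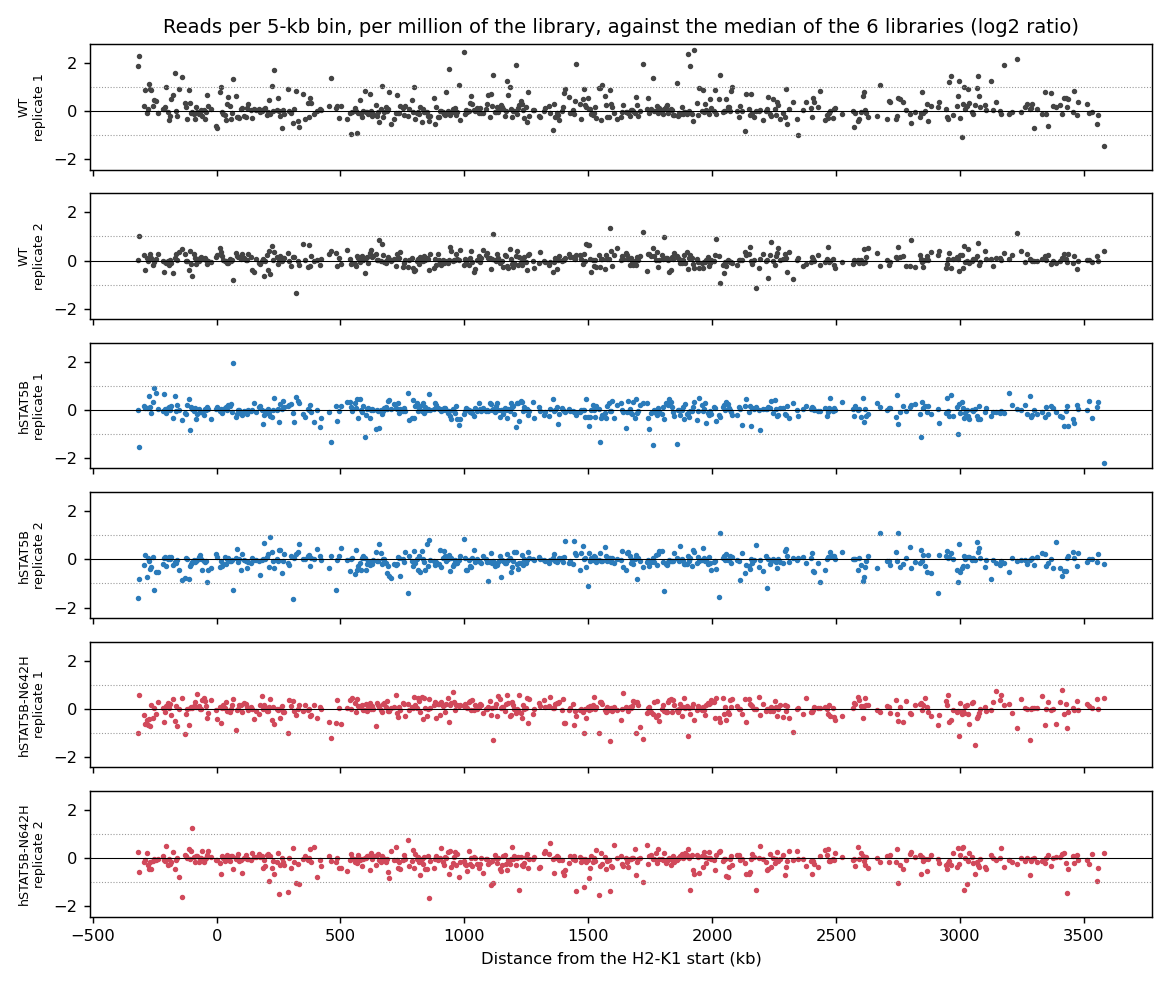
Log2 ratio of RPM in each 5-kb bin to the median of the 6 libraries, against distance in kb from the H2-K1 start, in 1 panel per library for 534 bins; dotted lines mark 2-fold. WT replicate 1 has 35 bins more than 2-fold above the median, against 0 to 5 in each other library.

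The upstream sequence of H2-K1 (chr17:34000397-34000687, minus strand) is shown because it carries the elements through which class Ia genes are known to respond to NF-kappaB and interferon, together with 1 measured CpG, in capitals near its left end.
H2-K1 upstream window: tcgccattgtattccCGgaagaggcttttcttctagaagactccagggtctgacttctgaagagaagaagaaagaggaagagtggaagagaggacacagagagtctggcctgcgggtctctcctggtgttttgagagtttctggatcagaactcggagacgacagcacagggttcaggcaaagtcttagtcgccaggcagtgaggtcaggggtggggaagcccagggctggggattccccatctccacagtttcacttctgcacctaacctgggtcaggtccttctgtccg
That CpG, chr17:34000671, had at most 1 methylated read in each library, of 10 to 25. An NF-kappaB site and an interferon response core, searched by their letters, both occur in this window and hold no CpG. The letters TTCNNNGAA, which STAT proteins bind, occur once in the window, read the same way on both strands, and hold the CpG in capitals.

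Motifs were searched on both strands of the RefSeq promoter windows of GRCm38, which run from upstream of each start to just inside the transcript. The NF-kappaB site stood in 10 of 32851 promoters (0.0304%), of which 3 were the listed promoters of H2-K1 and H2-D1 and 1 that of H2-Q6. The interferon core stood in 0.527% of all promoters in those of H2-K1, H2-D1, and H2-M2, and in 4 of 5 promoters of the H2-K2 and H2-Q list (H2-Q4, H2-Q6, H2-Q7, and H2-Q10). The Y box CTGATTGG, bound by the factor NF-Y, stood in 4.10% of all, in 4 of 9 class II promoters (H2-Oa, H2-Aa, H2-Eb1, and H2-Eb2), and in 9 of 13 H2-M promoter windows. The letters TTCNNNGAA, which STAT proteins bind, stood in 8.30% of all promoters, and among the H2 and peptide supply genes in those of Psmb8, H2-M3, H2-DMb2, and H2-M11. The match upstream of H2-K1 described above lies farther from the start than these promoter windows reach. The X2 core TGACG stood in 20.8% of all. The unmethylated genes H2-K1 and H2-D1 and the methylated genes H2-M10.4 and H2-M10.5 all held the Y box letters. A match is a description of the sequence, not a site shown to be bound.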

How the data were processed

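RRBS of lymph node CD8+ T cells was taken from 6 libraries, 2 per genotype and each from a separate mouse, so spread between libraries includes the animal. Per the labels and the study's methods, the authors trimmed reads with Trimmomatic, aligned them with BSMAP in RRBS mode to GRCm38/mm10, and counted CpGs with their own code; versions are not given in the sources used here. The deposited files give methylated and total read counts per CpG, not normalized, and a score, which the authors made from the methylated share on a scale to 1000; the score served as a test of the counts and differed from them by no more than rounding at any CpG.

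A CpG was kept where each of the 6 libraries had 5 reads or more, and bins and genes with at least 3 such CpGs. Methylation was tested with limma 3.58.1 (R 4.3.3) on log2 of methylated plus 1 over unmethylated plus 1 reads, summed per bin or gene, fitted over all 120214 bins or 28952 genes and all 6 libraries with Benjamini-Hochberg adjustment. Reads per bin (mean at least 10) were tested with limma-voom, in place of the count models first planned. Those models and a second count tool were not run. Fits were tested on simulated data. A quasi-binomial model and limma with a mean-variance trend were run beside the plain fit, and the level of the interval was also computed from its pooled reads. Genes come from GENCODE M21, sequences from RefSeq, and tables and figures from Python 3.11.15.

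Named genes were H2-K1, H2-D1, the class II genes, H2-M3, H2-T23, the peptide supply genes, Tnf, Lta, and Ltb, the 5 H2 genes with the largest difference in each comparison against WT, and the 3 bins with the smallest p per comparison and measure. The interval, members, lists, and rules were chosen with earlier results of these data known. Replicate numbers did not pair the libraries (correlations of same-numbered deviations -0.0306 to 0.0476). One marker gene of the lists is not reported here. Depth was 43291086 to 67007186 reads at CpGs, and intervals cover counting error only.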

Additional observations from a re-analysis of the deposited data

How the results depend on the processing

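With limma, none of the 328 bins and none of the 28 H2 genes of the interval was called under any alternative (10 reads per CpG, no CpGs of 1000 reads or more, an offset of 0.5, a mean-variance trend, only the genotypes compared, at least 1 or 5 CpGs, moved bins, other gene windows, each library left out, and, chosen after seeing the data, bins and genes with a mean of 100 reads). The quasi-binomial model called 2 bins for hSTAT5B N642H against WT and 2 for hSTAT5B N642H against hSTAT5B, and no H2 gene. For reads, 14 bins were called for hSTAT5B N642H against WT without WT replicate 2, so the calls with any 1 library left out ranged from 0 to 14, and none under TMM, median-of-ratios, other minimums, no very deep CpGs, or limma with a trend on log2 RPM (median-of-ratios and the trend were chosen after seeing the data); a second count tool, meant as a comparison, was not run. The mean level of the interval in hSTAT5B N642H was -0.454 points from WT, between -0.521 and -0.387 with any 1 library left out, -0.372 with 10 reads per CpG, but 0.203 with reads pooled; the cause was not tested. For hSTAT5B against WT it was 0.0153, 1.60 with reads pooled, -0.0737 with 10 reads per CpG, and -0.136 to 0.166 with any 1 library left out (-0.0515 without WT replicate 1 and -0.136 without hSTAT5B replicate 1). Where a library was left out, the lone library of its genotype was assumed to vary like the others. Without WT replicate 2, WT replicate 1 stood alone for WT, and it was the highest library in each bin called for reads. The share called genome-wide in that fit is not given here, so these calls are not read as a trait of the interval. For hSTAT5B N642H against hSTAT5B the mean difference was -0.469, -0.62 to -0.318 with any 1 library left out, -0.298 with 10 reads per CpG, and -1.40 with reads pooled. The replicate block, with numbers that did not pair the libraries, left the mean differences at -0.454, 0.0153, and -0.469 points and the calls at 0. Of 161 alternative values for differences at single genes, 153 kept their sign. With 2 libraries per genotype and a median of 22 reads per CpG, differences of a few points at single CpGs were not detectable.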
